A study of Homo sapiens with 3 samples.

Results

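The genes described here are the 3 pocket protein genes RB1, RBL1 and RBL2, the E2F genes E2F1 to E2F5 and the DP genes TFDP1 and TFDP2. They were chosen by name, after matching Ensembl IDs to GENCODE release 29 symbols, and all 10 were among the 15808 genes of the deposited count table. RNA was sequenced from OCI-Ly10 cells, an established human lymphoma line derived from a diffuse large B cell lymphoma, that had been exposed to MZ1 for 6 h. MZ1 is a degrader molecule that brings BET bromodomain proteins to the VHL ubiquitin ligase. The 3 libraries, replicates 1 to 3, form a single group, with no untreated cells analysed here. The values are therefore levels under MZ1 and their spread, and no response to MZ1 is given. Nothing in the labels says that the replicates were separate cultures, and the spread and p-values may therefore be technical.

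Pocket proteins bind E2F transcription factors and hold genes of the cell cycle silent until cyclin-dependent kinases phosphorylate them. E2F1, E2F2 and E2F3 are known mainly as activators that pair with RB1, while E2F4 and E2F5 are known mainly as repressors that pair with RBL1 and RBL2 in quiescent cells, and each E2F binds DNA as a dimer with a DP protein. E2F1, E2F2, E2F3 and RBL1 are themselves known targets of E2F, which makes their promoters part of the circuit. RB1 is a tumour suppressor that is lost in many cancers.

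To show where E2F could bind in this circuit, promoters were searched for the E2F consensus, written out as the 4 octamers TTTCCCGC, TTTCGCGC, TTTGCCGC and TTTGGCGC on both strands. RefSeq promoter windows on GRCh38.p14, running from 250 bases before to 50 after a gene's start, were found for 9 of the 10 genes, in 13 windows. A match lay in the window of 5 of these 9 genes (55.6%), namely RBL1, E2F1, E2F2, E2F3 and TFDP1, against 3.99% of all 27305 genes with a window and 7.18% of the 7642 with a window that were tested for variation. No match lay in the windows of RB1, RBL2, E2F4 or TFDP2. The window listed for RB1 lies inside the gene, as do those of RBL2 and some of those of TFDP2. A match describes letters and not binding, and the 5 genes were not tested as a set. The shares of all genes given here and below were not matched for promoter GC content. The 150 bases before the start are shown for the 4 genes with a match in the last 60 bases, with the matches in capitals.
RBL1 (chr20:37095998-37096147, minus strand): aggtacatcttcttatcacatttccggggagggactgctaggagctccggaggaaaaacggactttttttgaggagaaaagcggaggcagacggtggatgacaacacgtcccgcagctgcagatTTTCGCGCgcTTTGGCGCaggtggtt
E2F1 (chr20:33686386-33686535, minus strand): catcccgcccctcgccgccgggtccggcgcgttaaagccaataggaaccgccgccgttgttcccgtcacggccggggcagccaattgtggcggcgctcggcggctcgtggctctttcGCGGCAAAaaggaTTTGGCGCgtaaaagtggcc
E2F2 (chr1:23531234-23531383, minus strand): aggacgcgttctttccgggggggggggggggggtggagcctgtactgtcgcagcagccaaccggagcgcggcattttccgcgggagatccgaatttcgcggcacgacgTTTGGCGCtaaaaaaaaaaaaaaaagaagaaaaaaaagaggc
E2F3 (chr6:20401729-20401878, plus strand): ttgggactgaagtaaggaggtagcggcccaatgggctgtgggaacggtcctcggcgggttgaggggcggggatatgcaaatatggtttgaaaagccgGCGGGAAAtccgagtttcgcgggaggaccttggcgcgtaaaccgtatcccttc
RBL1 and E2F1 each held 2 matches close together, beginning 26 and 16 bases before the start in RBL1 and 33 and 20 bases before it in E2F1. E2F2 and E2F3 held 1 match each, beginning 42 and 53 bases before the start, and that of TFDP1 began 120 bases before its start.

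The libraries were shallow and uneven, with 5474462, 1441246 and 1314812 counts in replicates 1, 2 and 3. CPM stands for counts scaled by the TMM-adjusted library size, in which 1 count was worth 0.20, 0.629 and 0.767 CPM. CPM are not corrected for length, and genes are compared with each other as CPM per kb of merged exons. The B cell markers MS4A1, CD79A, CD79B, PAX5 and CD22 had means of 737.3, 564.3, 69.33, 96.12 and 22.94 CPM. The markers of other cells that were in the table (LYZ, COL1A1, CD2 and CD33) had means of 5.44, 3.0, 0.467 and 0.21 CPM. These B cell markers had at least 1 CPM in every library, but so did LYZ, COL1A1 and 68.0% of the genes in the table. CD22 was at 5.37 CPM in replicate 3, below LYZ in replicates 1 and 2 (6.198 and 6.285 CPM).

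All 10 pocket protein, E2F and DP genes reached 1 CPM in every library, as did 68.0% of the genes in the table. Variation between libraries was tested with a chi-square test of a gene's 3 counts against equal expression, with Benjamini-Hochberg adjustment over every gene whose mean count was 10 or more. The test sets the counts against counting noise alone and treats reads as independent molecules, so "varied" means more than counting error and not a difference beyond the spread of replicates. Enough counts for the test were present in 9 of the 10 genes, and 5 varied (RB1, RBL1, E2F3, E2F4 and TFDP1), against 67.2% of all 10016 genes tested. At a mean count of 50 or more 5 of 7 varied, against 81.1% of all genes. Without replicate 1, 2 or 3 the tallies were 5 of 8, 3 of 10 and 4 of 10, against 33.8%, 45.2% and 56.2% of all genes. The shares of the 10 genes lay below the background in the tests that held replicate 1 and above it without that replicate, differences that were not tested. All of these tests compare libraries and not conditions. In bulk RNA, fewer cells with a transcript and less of it per cell cannot be told apart. Of the 7 genes at 10 CPM or more, 3 were highest in replicate 1, 3 in replicate 2 and 1 in replicate 3, against 43.1%, 28.7% and 28.2% of all genes at that level. The lowest value fell in replicate 1 for 1 of the 7 and in replicates 2 and 3 for 3 each, against 34.0%, 40.5% and 25.5%. These tallies, and those of the same kind below, were made under TMM scaling. With GC factors, which scale each library within bins of transcript GC content, the highest library changed for RBL1, RBL2, E2F1 and E2F4. The lowest library changed for E2F1, and the shares of all genes were not computed with these factors. Under TMM scaling the median SD of log2(CPM + 0.5) was 0.36 over the 10 genes and 0.53 over all genes tested.

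RB1 was the most abundant of the 10 genes. RB1 (ENSG00000139687.12, chromosome 13, 48303726 to 48599436, plus strand), the founding pocket protein, had 358.5, 541.8 and 563.8 CPM in replicates 1, 2 and 3, from 1793, 862 and 735 counts. Under TMM scaling replicate 1 was the low library, and replicates 2 and 3 lay close together. RB1 varied over the 3 libraries (adjusted p = 2.33e-34) and no difference was detectable at this depth between replicates 2 and 3 (adjusted p = 0.743). Per kb its level was 75.6 ± 17.5 CPM (SD, n = 3), which placed it at percentile 96.6 of 13086 expressed genes of known length (mean of 1 CPM or more), whose median was 3.15 CPM per kb. No annotated exon of another gene overlaps those of RB1.

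The other pocket proteins were much lower than RB1. RBL1 (p107; ENSG00000080839.10, chromosome 20, 36996349 to 37095995, minus strand), which is known to rise in cycling cells, had 39.4, 49.6 and 24.6 CPM in replicates 1, 2 and 3, from 197, 79 and 32 counts. RBL2 (p130; ENSG00000103479.13, chromosome 16, 53433977 to 53491649, plus strand), the pocket protein typical of quiescent cells, had 39.4, 45.2 and 29.9 CPM, from 197, 72 and 39 counts. Under TMM scaling both genes were highest in replicate 2 and lowest in replicate 3. RBL1 varied between libraries (adjusted p = 0.00556) and RBL2 did not pass the threshold (0.148), while without replicate 1 both did (0.00106 and 0.0458) and without replicate 3 neither did (0.127 and 0.398). With the GC factors both were highest in replicate 1 and still lowest in replicate 3. RBL1 then had 44.58, 42.42 and 25.82 CPM in replicates 1, 2 and 3, and RBL2 had 44.21, 40.27 and 31.62 CPM.

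Per kb of exon, RB1 lay above RBL1 by 3.58 ± 0.70 on the log2 scale (SD, n = 3), a 12.0-fold difference, in 3 of 3 libraries. It lay above RBL2 by 3.83 ± 0.53, a 14.2-fold difference, also in 3 of 3. With 3 libraries the exact two-sided sign-flip permutation test cannot give less than p = 0.25, which both pairs had (0.357 after adjustment over 10 pairs). RBL2 over RBL1 was close to even, at -0.25 ± 0.21 (exact permutation p = 0.25), and turned to 0.26 when lengths were those of the longest transcript. RB1 made up 82.2%, 85.3% and 91.4% of the summed pocket protein level per kb in replicates 1, 2 and 3. Exons of RBL2 overlap those of AKTIP on the opposite strand over 610 bases, and AKTIP had 0.80, 8.17 and 13.8 CPM in replicates 1, 2 and 3. The sources used here do not say whether the counting used strand, and the part of AKTIP reads in the RBL2 counts was not tested. RBL1 exons overlap an antisense gene that was not analysed here.

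Among the activators, E2F1 and E2F3 were well expressed and E2F2 was barely detected. E2F1 (ENSG00000101412.12, chromosome 20, 33675683 to 33686404, minus strand), which drives entry into S phase, had 48.2, 35.8 and 39.9 CPM in replicates 1, 2 and 3, from 241, 57 and 52 counts. E2F3 (ENSG00000112242.13, chromosome 6, 20401906 to 20493715, plus strand), an activator whose loss slows the division of mouse fibroblasts, had 95.2, 125 and 76.7 CPM, from 476, 199 and 100 counts. E2F1 was highest in replicate 1 and its libraries did not differ past the threshold (adjusted p = 0.119). E2F3 was highest in replicate 2 and varied (adjusted p = 0.000252), but without replicate 2 it did not pass (0.097). E2F3 has pseudogenes, and E2F3P2, the copy in the table, had 3 counts in each library.

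E2F2 (ENSG00000007968.6, chromosome 1, 23506430 to 23531220, minus strand), another activator, had 17, 7 and 4 counts. Its levels were 3.40, 4.40 and 3.07 CPM, with exact 95% Poisson intervals of 1.98 to 5.44, 1.77 to 9.06 and 0.836 to 7.86 CPM that overlap. These intervals, and the limits set by a count of 0, cover counting error only, because PCR copies of a molecule cannot be told apart here. Its mean count of 9.33 was below the minimum for the test. Per kb, E2F1 lay above E2F2 by 4.47 ± 0.40 on the log2 scale and E2F3 above E2F2 by 4.66 ± 0.13, 22.1-fold and 25.2-fold, each in 3 of 3 libraries (exact permutation p = 0.25 for both). E2F3 over E2F1 was 0.19 ± 0.48, with E2F3 above E2F1 in 1 of 3 libraries (exact permutation p = 1.0), and -0.09 without replicate 2.

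Under TMM scaling E2F4 had the widest spread of the 10 genes (SD of 0.92 on the log2 scale, against 0.60 for TFDP1), but with GC factors, which scale each library within bins of transcript GC content, TFDP1 had the widest (0.62, against 0.30 for E2F4). E2F4 (ENSG00000205250.7, chromosome 16, 67192169 to 67198918, plus strand), the main repressor E2F, had 81.2, 25.8 and 75.9 CPM in replicates 1, 2 and 3, from 406, 41 and 99 counts. Replicate 2 stood apart, 3.15-fold below replicate 1, and replicates 1 and 3 lay within 0.10 on the log2 scale. The variation passed the test (adjusted p = 7.17e-12), but not without replicate 2 (0.658) or with the GC factors (0.136), under which replicate 1 was 1.37 times replicate 2. A pseudogene, E2F4P1, was not analysed here. E2F5 (ENSG00000133740.9, chromosome 8, 85177225 to 85217158, plus strand), the other repressor of this kind, had 9.0, 9.43 and 6.90 CPM, from 45, 15 and 9 counts, and no difference between libraries was detectable at this depth (adjusted p = 0.764). Its exons overlap those of C8orf59 on the opposite strand over 969 bases, and C8orf59 had 41.8, 12.6 and 21.5 CPM in replicates 1, 2 and 3.

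Per kb, E2F4 lay above E2F5 by 3.35 ± 1.07 on the log2 scale, 10.2-fold, in 3 of 3 libraries (exact permutation p = 0.25). E2F4 over E2F1 was -0.12 ± 0.76 and E2F4 over E2F3 -0.31 ± 1.24, both with E2F4 the higher gene in 2 of 3 libraries and the lower in replicate 2 (exact permutation p = 1.0 for both). Without replicate 2 the same ratios were 0.32 and 0.41. E2F4 therefore could not be ordered against E2F1 and E2F3 beyond the spread between libraries.

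Of the DP genes, which encode the partners that E2F proteins need to bind DNA, nearly all of the signal came from TFDP1. TFDP1 (ENSG00000198176.11, chromosome 13, 113584721 to 113641470, plus strand) had 185, 80.5 and 128 CPM in replicates 1, 2 and 3, from 924, 128 and 167 counts. Each library stood apart from the others, with replicate 1 highest and replicate 2 lowest (adjusted p = 8.82e-20), and TFDP1 also passed when any 1 replicate was left out (adjusted p of 0.00312, 5.74e-05 and 1.36e-18 without replicates 1, 2 and 3). TFDP2 (ENSG00000114126.16, chromosome 3, 141944428 to 142149544, minus strand) had 7.60, 6.91 and 3.84 CPM, from 38, 11 and 5 counts, with no difference detectable at this depth (adjusted p = 0.395). Per kb, TFDP1 lay above TFDP2 by 5.95 ± 0.75 on the log2 scale, 62.0-fold, in 3 of 3 libraries (exact permutation p = 0.25), and made up 98.4 ± 0.898% of the summed DP level.

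**Figure D1:**
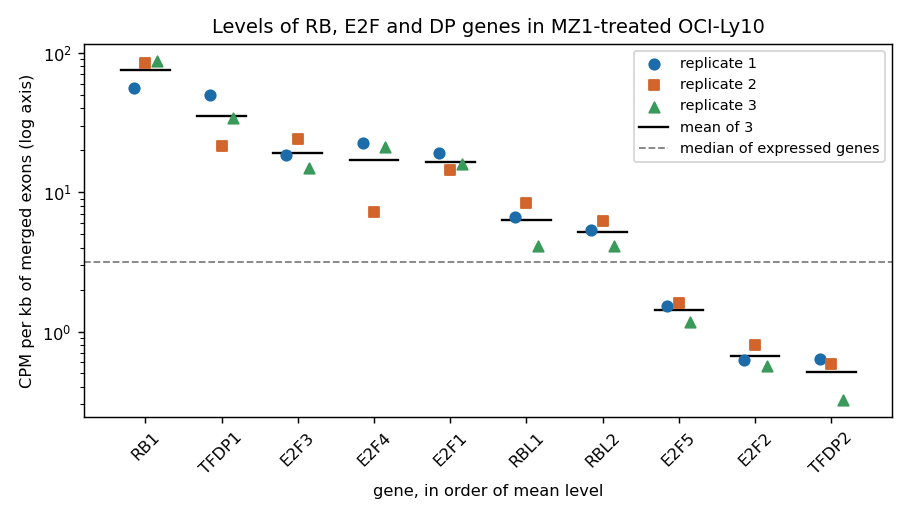
Level of each gene in CPM per kb of merged exons (log axis), with a point for each of the 3 libraries, a bar for their mean and a dashed line for the median of 3.15 CPM per kb over expressed genes. RB1 leads, TFDP1, E2F3, E2F4 and E2F1 overlap, and E2F5, E2F2 and TFDP2 lie below the median.

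In order of mean CPM per kb the genes ran RB1 (75.6), TFDP1 (35.0), E2F3 (19.2), E2F4 (17.0), E2F1 (16.5), RBL1 (6.36), RBL2 (5.22), E2F5 (1.42), E2F2 (0.664) and TFDP2 (0.514). The ends of this order were 147-fold apart. Neighbours from TFDP1 to E2F1 did not differ beyond their spread. The step was 0.82 ± 0.86 on the log2 scale for TFDP1 over E2F3, 0.31 ± 1.24 for E2F3 over E2F4 and -0.12 ± 0.76 for E2F4 over E2F1. The other 6 steps exceeded 1 SD, each with the same sign in 3 of 3 libraries, from 0.25 ± 0.21 for RBL1 over RBL2 to 1.80 ± 0.09 for RBL2 over E2F5. The order of neighbours was read from the same values, so these steps carry no test.

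Summed per kb under TMM scaling, the pocket protein genes had 67.6, 98.5 and 95.6 CPM, the 5 E2F genes 62.5, 48.1 and 53.7 CPM and the DP genes 50.02, 22.1 and 34.6 CPM in replicates 1, 2 and 3. With the GC factors the E2F sum was 51.8, 60.7 and 48.2 CPM, with replicate 2 the highest library and not the lowest. The pocket protein sum was then 77.9, 84.3 and 99.4 CPM and the DP sum 50.3, 21.6 and 35.6 CPM. Under TMM scaling E2F1 took 30.8%, 29.7% and 29.7% of the E2F sum. E2F3 took 29.5%, 50.3% and 27.7% and E2F4 took 36.3%, 14.9% and 39.5%, and the leading E2F was E2F3 in replicate 2 and E2F4 in replicates 1 and 3. This order depended on the scaling: with the GC factors E2F3 led in replicate 1 (37.1%), E2F1 in replicate 2 (39.2%) and E2F4 in replicate 3 (36.8%), and E2F1 took 26.9%, 39.2% and 27.7%. The sum of the activators E2F1 to E2F3 was 1.58, 4.48 and 1.40 times that of E2F4 and E2F5, and 1.85, 3.56 and 1.54 times with the GC factors. These sums are of RNA and say nothing of protein.

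**Figure D2:**
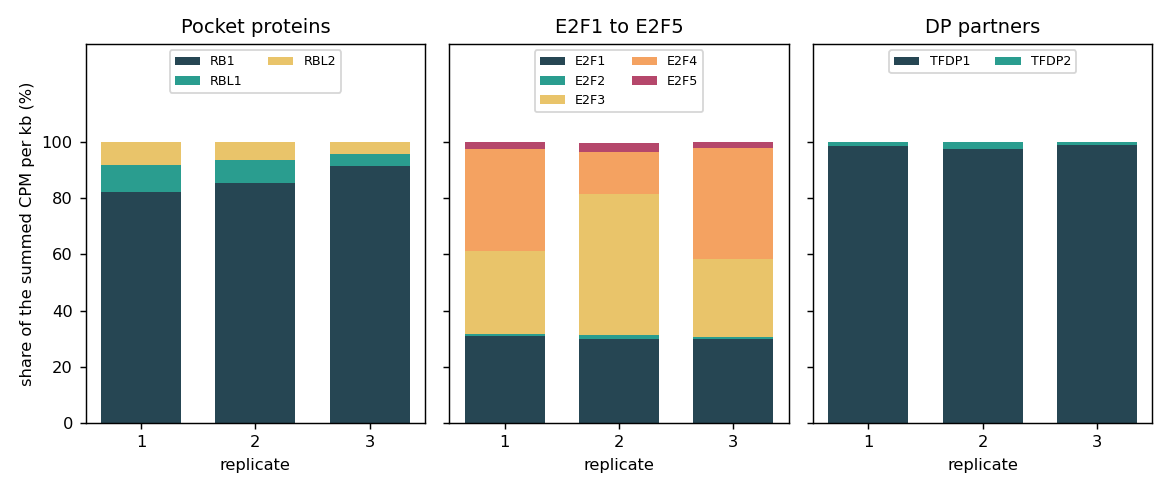
Share of each gene in the summed CPM per kb of its family (%, stacked bars) in replicates 1, 2 and 3. RB1 holds 82.2% to 91.4% of the pocket protein sum and TFDP1 97.4% to 99.1% of the DP sum, while E2F3 leads the E2F sum in replicate 2 and E2F4 in replicates 1 and 3, an order that changes with factors per GC bin.

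Differences between libraries moved with the GC content of transcripts, and E2F1, E2F4 and E2F2 had the most GC-rich transcripts of the 10 genes. The GC content of the longest transcript was 62.5% in E2F1, 59.3% in E2F4 and 57.5% in E2F2, against 37.3% to 46.7% in the other 7 genes. The log2 difference of replicate 2 minus replicate 1 was -1.64 for E2F4, -0.42 for E2F1, -1.19 for TFDP1 and 0.60 for RB1. Over all genes of at least 10 CPM, split into 8 equal bins by GC content, its median was -1.37 in the richest bin (median 61.0% GC) and 0.32 in the poorest (median 37.0%). When each library was scaled by a factor per GC bin, E2F4 had 58.7, 42.9 and 63.6 CPM in replicates 1, 2 and 3 and no longer passed (adjusted p = 0.136). E2F1 then had 34.9, 59.6 and 33.4 CPM and did pass (adjusted p = 0.0016), and E2F2 had 2.77, 5.71 and 2.88 CPM. Replicate 2 was thus the low library for E2F4 with and without these factors, and for E2F1 it was the low library without them and the high one with them. Which scaling is nearer to the cells was not tested. With these factors 5 of the 9 genes varied, 4 of them shared with the scaling without GC factors, against 61.9% of all genes. TFDP1, with a transcript of 46.6% GC, had 186, 78.7 and 132 CPM under the GC factors (adjusted p = 1.79e-20), and RB1 had 415, 462 and 585 CPM (2.42e-13). The log2 difference of replicate 2 minus replicate 1 in RB1 was then 0.15 and that of replicate 3 minus replicate 2 was 0.34. Replicates 1 and 2 were thus the closer pair for RB1 with these factors, and replicates 2 and 3 without them.

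**Figure D3:**
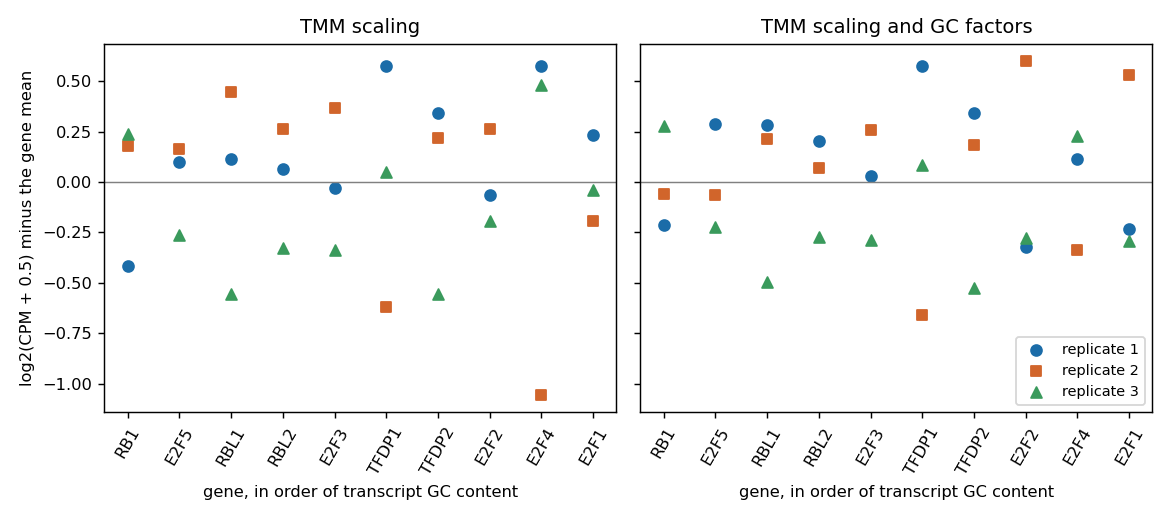
Log2(CPM + 0.5) of each gene in each library minus the gene's mean, with genes ordered by transcript GC content, under TMM scaling (left) and with a further factor per GC bin (right). The low value of E2F4 in replicate 2 moves from -1.06 to -0.34, E2F1 in replicate 2 moves from -0.19 to 0.53, and TFDP1 stays within 0.04 of its values.

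**Figure D4:**
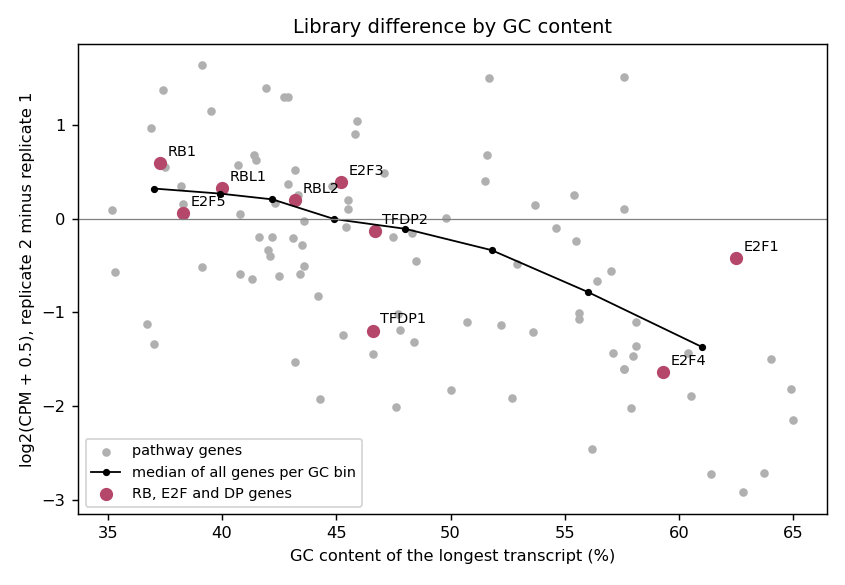
Difference of replicate 2 minus replicate 1 in log2(CPM + 0.5) against the GC content of the longest transcript (%), for the 9 RB, E2F and DP genes with enough counts for the test, other pathway genes (grey) and the median of all genes of at least 10 CPM in 8 GC bins (line). E2F1 lies above the line and TFDP1 and E2F4 below it.

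The genes whose values over the 3 libraries lay closest to each member were looked up among the 83 members and pathway genes whose mean count was 50 or more. Likeness was the root mean square difference of centred log2(CPM + 0.5) under TMM scaling, over 3 libraries only. It was not computed with the GC factors. RBL1 lay closest to POLA1 (0.02), the catalytic subunit of DNA polymerase alpha. E2F3 lay closest to CDK2 (0.03), the kinase of S phase entry, and SIN3A (0.06), and RBL2 to E2F3 and TYMS, thymidylate synthase (0.08 for both). RB1 lay closest to HDAC2 (0.10) and BUB1B (0.11), E2F1 to RBBP7 (0.07) and PPP1CC (0.10), and TFDP1 to AURKB and CDKN1B (0.07 for both). E2F4 had no close neighbour under TMM scaling, with CDC20 at 0.26 and BIRC5 at 0.27. The profiles of E2F4, E2F1, RB1, RBL1 and RBL2 changed with the GC factors, as given above, so their neighbours may depend on the scaling.

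The remaining E2F genes were low. E2F6, a repressor that does not bind pocket proteins, had 3.53 ± 0.352 CPM (SD, n = 3), E2F7 had 8, 13 and 1 counts and E2F8 20, 14 and 3 counts in replicates 1, 2 and 3. E2F7 and E2F8 are atypical repressors that bind DNA without a DP partner. E2F8 was the only gene of the 3 with enough counts for the test and it varied (adjusted p = 0.0313), with its highest level in replicate 2, but not with the GC factors (0.0748) or without replicate 2 (0.483). TFDP3 was not analysed here.

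The listed cyclins and kinases act on pocket proteins directly or by activating the kinases that do. They were led by CCND2, at 78.4 ± 10.5 CPM per kb, followed by CDK4 at 52.5 ± 24.1 and CDK2 at 25.2 ± 6.72 CPM per kb (SD, n = 3). CCND1 was the lowest, with 4, 1 and 1 counts. Variation between libraries was called for 8 of the 11 tested, against the 67.2% of all genes, and for 4 of 8 without replicate 1, against 33.8%, and 5 of 11 without replicate 2, against 45.2%. Of the CDK inhibitors, CDKN1A (p21) had 298, 108 and 173 CPM and CDKN1B (p27) 109, 53.4 and 78.2 CPM in replicates 1, 2 and 3, and both varied, CDKN1B not without replicate 1 (adjusted p = 0.0797). CDKN2C had 57, 8 and 16 counts and CDKN2D 6, 1 and 1. CDKN2A and CDKN2B, which encode inhibitors of CDK4 and CDK6, were at 0 counts, and the limits this sets (3 counts) were 0.60, 1.89 and 2.30 CPM in replicates 1, 2 and 3. CDKN1C was not analysed here.

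Chromatin partners of RB were all at or above 1 CPM in each library, as were 68.0% of all genes, and 10 of 11 varied, against 67.2%. At a mean count of 50 or more 9 of 10 varied, against 81.1% of all genes. Without replicate 1 4 of 11 varied, against 33.8% of all genes, and without replicate 2 6 of 11, against 45.2%. HDAC1, a deacetylase, had 57.0 ± 4.05 CPM per kb, the phosphatase subunits PPP1CA and PPP1CC, of the enzyme that dephosphorylates RB, had 44.2 ± 35.4 and 24.8 ± 4.98, and SIN3B was the lowest at 2.0 ± 0.969 CPM per kb. DREAM is the complex of RBL1 or RBL2, E2F4 or E2F5, a DP protein and the MuvB core, and MYBL2 and FOXM1 replace the repressors on the core later in the cycle. MYBL2 had 43.8 ± 27.7 CPM per kb, the MuvB subunit RBBP4 24.4 ± 1.85 and FOXM1 9.51 ± 5.68, and the MuvB subunit LIN37 had 2, 0 and 2 counts. Of the 7 tested, 4 varied, against 67.2% of all genes, and 7 of 7 with the GC factors, against 61.9%. Among genes that act on the turnover or activity of E2F and pocket proteins, 4 of 7 varied, against 67.2% of all genes. With the GC factors 5 of 7 did, against 61.9%. TRIM28, a corepressor, had 2133, 325 and 1131 CPM in replicates 1, 2 and 3 and a transcript of 63.7% GC. MDM2, which marks p53 for destruction, was at 551, 1447 and 736 CPM. TRIM28 and MDM2 varied with the GC factors as well (adjusted p = 1.16e-182 and 1.48e-153). CDC20 and CCNF were highest in replicate 1, at 139 and 41.2 CPM, and both varied, CCNF not without replicate 1 (adjusted p = 0.292). AMBRA1, SKP2 and FZR1, subunits or activators of ubiquitin ligases, had 35.1 ± 5.56, 11.5 ± 3.07 and 6.06 ± 3.08 CPM and did not pass the threshold. With the GC factors SKP2 did pass (adjusted p = 0.0355), and AMBRA1 and FZR1 did not (0.0937 and 0.8).

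Genes downstream of E2F were expressed throughout. All 30 listed E2F targets of DNA synthesis reached 1 CPM in every library, as did 68.0% of all genes, and 25 of 30 varied, against 67.2%. At a mean count of 50 or more 24 of 29 of them varied, close to the 81.1% of all genes at that depth. PCNA, the sliding clamp, had 161 ± 74.5 CPM per kb, the helicase subunit MCM7 119 ± 9.88 and the flap endonuclease FEN1 88.9 ± 10.9, while the licensing factor CDT1 was lowest at 4.11 ± 2.46 CPM per kb. Of the 30, 10 were highest in replicate 1, 13 in replicate 2 and 7 in replicate 3, against 43.1%, 28.7% and 28.2% of all genes at 10 CPM or more. A motif match lay in a promoter window of 17 of the 27 with one (63.0%). The background was 7.18% of the genes tested for variation that had a window and 3.99% of all genes with a window. These genes were listed because they are textbook E2F targets, so a share above the background follows from their choice. It is not evidence from these data. All 20 genes of G2 and M bound by DREAM reached 1 CPM in every library as well, and 19 of 20 varied, against 67.2% of all genes. At a mean count of 50 or more the count was 17 of 18, against 81.1%. Without replicate 1 the count was 6 of 18, against 33.8%. TOP2A had 62.4 ± 14.7, CCNB1 52.9 ± 30.4 and MKI67 18.5 ± 6.04 CPM per kb, and CDC25C was the lowest at 0.938 ± 0.901. Of the 18 at 10 CPM or more, 14 had their top value in replicate 1, against 43.1% of all 7510 genes at that level. A motif match lay in the windows of 2 of the 16 genes of G2 and M with one (12.5%), against the same 7.18% and 3.99%.

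The median of the mean levels was 11.4 CPM per kb over the 10 pocket protein, E2F and DP genes. It was 21.2 over the E2F targets of DNA synthesis, 11.7 over the genes of G2 and M, 14.0 over the RB chromatin partners and 5.72 over the cyclins and kinases. The CDK inhibitors had 1.73 and the remaining E2F genes 0.867 CPM per kb. Exons of 40 of the 98 pathway genes overlap exons on the opposite strand, CCND2, CDK4, CDK2, CDKN1A, MCM7 and FEN1 among them, and reads of the partners cannot be told apart from theirs without a known strand setting.

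**Figure D5:**
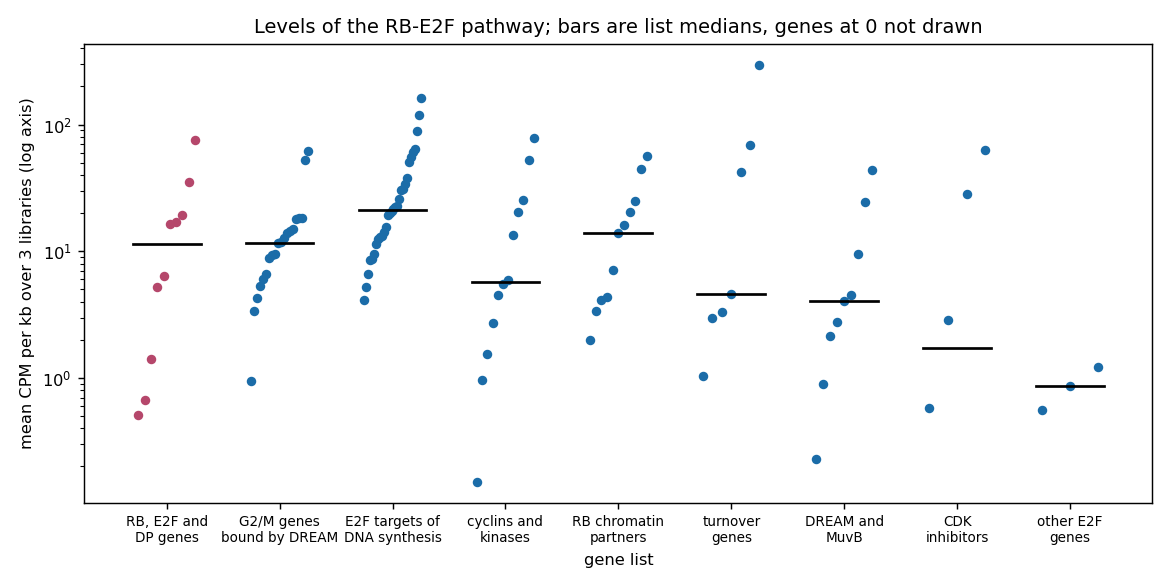
Mean CPM per kb over the 3 libraries (log axis) of each gene in the RB, E2F and DP set and in 8 pathway lists, with bars for list medians. The RB, E2F and DP genes span 0.514 to 75.6 CPM per kb, and CDKN2A and CDKN2B, at 0, are not drawn.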

How the data were processed

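Libraries were made from Trizol-extracted RNA with a TruSeq RNA kit, per the labels. The deposited table holds raw read counts per gene. The tools STAR and edgeR and the build hg38 are named in the submitters' processing notes. The sources used here do not give versions, the counting tool, its strand setting or the annotation. The deposited log2 table holds the authors' log2 CPM, with an offset of 0.452 CPM, and served as an alternative. Of 15808 genes, 15668 matched GENCODE release 29, which gave symbols, positions, lengths and GC content.

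Counts were scaled by TMM (edgeR 4.0.16, R 4.3.3). The chi-square test (scipy 1.17.1, Poisson, mean count of at least 10, threshold 0.05) was run on simulated Poisson counts. Those counts held no spread between replicates beyond counting error and no GC effect. That run therefore cannot show how the test behaves where either is present. Pairs were compared as log2 ratios of (CPM + 0.5) per kb, which understates differences of low genes. The members, lists and pairs were chosen with earlier results of these data known.

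Genes named are the 10 members, the 3 highest and the lowest of each list by mean CPM per kb, all genes of lists of 7 or fewer, genes overlapping a member's exons and the 2 nearest profiles of each member. E2F4P1, E2F3P2 and the GC content of TRIM28 were added after values were seen. Some genes that this rule or the marker list would name are not reported here. Alternatives were DESeq2 1.42.0 size factors, column totals, other filters, pseudocounts and lengths, GC factors and leaving out each replicate.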

Additional observations from a re-analysis of the deposited data

How the results depend on the processing

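No paired analysis was possible because the labels give a single group. The count of varying members was 5 or 6 under DESeq2 size factors, column totals, GC factors and other filters on counts, and 3 to 5 when a replicate was left out (3 without replicate 2). Column totals added RBL2, and GC factors replaced E2F4 with E2F1. TFDP1 was called under all 9 settings, and RB1, RBL1 and E2F3 under 8. Varying genes numbered, over the 3 ways of leaving out a replicate, 0 to 2 of the remaining E2F genes (main count 1), 3 to 4 of the DREAM list (4), 4 to 7 of the cyclins and kinases (8), 1 to 3 of the CDK inhibitors (2), 4 to 9 of the RB chromatin partners (10), 3 to 5 of the turnover list (4), 18 to 21 of the E2F targets (25) and 6 to 16 of the G2 and M genes (19). With fewer libraries fewer genes are called overall (33.8%, 45.2% and 56.2% without replicates 1, 2 and 3). Without replicate 1 the counts were 3 of 7 tested in the DREAM list, 4 of 8 cyclins and kinases and 1 of 3 CDK inhibitors. They were 4 of 11 RB chromatin partners, 3 of 6 in the turnover list, 18 of 30 E2F targets and 6 of 18 G2 and M genes, against 33.8%. Among the remaining E2F genes 2 varied with no filter on low counts, 0 at a mean count of at least 50, where none was tested, and 0 with GC factors. With GC factors 7 genes of the DREAM list varied. The cause was not tested.

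Of the pairs, 82 of 90 alternative ratios kept their sign. RBL2 over RBL1 turned to 0.26 with the longest transcript as length and 0.049 with no length correction. E2F4 over E2F1 turned to 0.34 and 0.40 under the same settings, and E2F4 over E2F3 to 0.028 with the longest transcript. Leaving out a replicate gave -0.091 to 0.34 for E2F3 over E2F1, -0.38 to 0.32 for E2F4 over E2F1 and -0.72 to 0.41 for E2F4 over E2F3. Levels from the deposited log2 values lay higher, at 663 CPM for RB1. Depth limits E2F2, E2F5 and TFDP2 most, with 4, 9 and 5 counts in replicate 3.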
